A study of Mus musculus with 48 samples.

Results

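The genes described here are 36 genes of the interferon response and of class I antigen presentation, chosen by name from a list, out of 48795 genes in the count and FPKM tables. Each of the 36 was found once, all are protein-coding, and they lie on 14 chromosomes. The rule names the genes and uses no measured value, but the list was chosen with earlier results of these data known. By role they are 6 sensors of RNA and DNA and their helpers (Ddx58, Ifih1, Dhx58, Eif2ak2, Zbp1, Trim25), 3 signalling factors (Stat2, Irf7, Irf9), 2 genes of the ISG15 system (Isg15, Usp18), 15 effectors (Ifit1, Ifit2, Ifit3, Ifit3b, Oasl2, Rsad2, Cmpk2, Bst2, Ifi27, Ifi35, Ifi44, Rtp4, Xaf1, Gbp3, Lgals3bp), 3 ADP-ribosylation genes (Parp9, Parp14, Dtx3l) and 7 class I presentation genes (B2m, H2-K1, H2-D1, Tap1, Psmb8, Psmb9, Psmb10). All 36 passed the low-count filter that kept 20010 genes, and 0 of them had a count of 0 in any mouse.

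The tissue was cerebral cortex from 48 mice, 24 of each sex, all 6 months old and listed on a C57BL/6 background, and its RNA was sequenced. There were 6 genotypes. Without the knock-in were 7 wild type mice (WT), 9 Msh3+/- and 8 Msh3-/-, and with it, in heterozygous form, were 8 Q140 mice, 8 Q140 x Msh3+/- and as many of Q140 x Msh3-/-. Q140 is a knock-in model of Huntington's disease, in which one copy of the mouse huntingtin gene carries an expanded CAG repeat. Msh3 encodes a mismatch repair protein that acts on small loops of DNA, such as those formed by repeats. The comparisons ask whether the knock-in, the altered Msh3 alleles or both together go with a difference in cortical transcripts. No mouse was given an infection or an interferon, so far as the labels say, and the construction of the Msh3 allele and the measured repeat lengths are not given in the sources used here.

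Interferons are secreted proteins that cells release after sensing viral or misplaced nucleic acid. Type I interferon binds a receptor whose Janus kinases activate STAT proteins, among them STAT2, which acts with IRF9 in a factor that binds the interferon-stimulated response element, a DNA motif in front of many target genes. The target genes encode nucleic acid sensors, antiviral effectors, feedback regulators, and the proteasome, transporter and histocompatibility proteins that show peptides at the cell surface. In brain these genes are expressed at a low level without infection, by microglia and vascular cells among others.

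Because the response element is what many of these genes share beyond their names, the sequence around their start sites was searched for it. RefSeq promoter windows on GRCm38.p6, from 250 bases before to 50 bases after a start site, were matched by symbol for 29 of the 36 genes. The letters searched were GAAANNGAAA, on both strands, and, for the gamma-activated site, TTCNNNGAA, which may share bases with a match of the first. The first motif was in a window of 12 of the 29 genes (41.4%), against 3.99% of the 27025 genes of the whole promoter table. It was found for the sensors Ddx58, Ifih1 and Eif2ak2, for Stat2, for Isg15, for the effectors Ifit1, Ifit3, Ifit3b, Rsad2, Bst2 and Gbp3, and for B2m. In Ddx58, Ifih1 and Eif2ak2 the only match began after the start site, by 2, 32 and 18 bases. The second motif was in the windows of 5 genes (17.2%, against 9.55% of all): Eif2ak2, Ifit2, Bst2, Ifi35 and Psmb8. A match is a run of letters and was not tested for binding. The 200 bases before the start site are printed, 5′ to 3′ on the gene's strand, for Isg15 as the gene with the most matches, for 3 genes of the Ifit cluster, and for Oasl2, which has none, because Ifit1 and Oasl2 return below. Capitals mark the first motif, read on either strand.
Isg15, chr4:156200819-156201018, minus strand: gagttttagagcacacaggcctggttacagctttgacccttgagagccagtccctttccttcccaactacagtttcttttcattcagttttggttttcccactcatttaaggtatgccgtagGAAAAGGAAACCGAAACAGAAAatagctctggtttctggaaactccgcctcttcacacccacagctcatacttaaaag
Ifit1, chr19:34640689-34640888, plus strand: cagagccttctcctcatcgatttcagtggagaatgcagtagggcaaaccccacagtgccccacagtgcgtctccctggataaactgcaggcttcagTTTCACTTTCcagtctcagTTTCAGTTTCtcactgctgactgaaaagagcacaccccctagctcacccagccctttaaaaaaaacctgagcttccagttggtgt
Ifit3, chr19:34583329-34583528, plus strand: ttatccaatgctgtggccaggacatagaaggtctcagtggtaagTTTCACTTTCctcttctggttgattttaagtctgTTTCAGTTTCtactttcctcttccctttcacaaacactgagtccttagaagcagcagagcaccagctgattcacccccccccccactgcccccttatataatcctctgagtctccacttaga
Ifit3b, chr19:34607757-34607956, plus strand: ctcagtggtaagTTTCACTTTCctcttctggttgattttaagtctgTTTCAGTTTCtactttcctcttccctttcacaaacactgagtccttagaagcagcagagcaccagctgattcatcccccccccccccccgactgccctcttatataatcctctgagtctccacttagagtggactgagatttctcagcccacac
Oasl2, chr5:114896734-114896933, plus strand: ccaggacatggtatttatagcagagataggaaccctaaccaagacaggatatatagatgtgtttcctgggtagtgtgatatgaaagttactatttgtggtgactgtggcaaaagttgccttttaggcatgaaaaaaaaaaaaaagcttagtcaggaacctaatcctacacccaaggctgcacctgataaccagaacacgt
In Isg15 the 3 matches overlap in 1 run of 22 bases, while those of Ifit1 start at -104 and -85 from its start site and are separate. Ifit3 and Ifit3b carry the same pair of matches, at -156 and -122 and at -188 and -154. Of the 3 genes called later between the sexes, Ifit1 has matches, while Oasl2 and Dtx3l have 0 in their windows.

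Each library held between 35946572 and 64479357 counted reads. The targeted gene does not follow a simple reading of its labels: Msh3 CPM (counts scaled to equal library size, with TMM factors) were 21.8 to 25.9 in the 15 mice with no altered allele, 61.2 to 77.4 in the 17 labelled Msh3+/- and 99.1 to 125.0 in the 16 labelled Msh3-/-. The 3 ranges do not overlap. The labels thus separate the mice, but Msh3 RNA was higher, not lower, with each altered allele. Htt was 225 to 259 CPM in all 48 mice. Markers of cortical neurons summed to 7910 to 9240 CPM in every library, while 12 of 15 markers of peripheral immune cells, among them the T cell genes Cd3e and Cd8a, were too low to test, with at most 14 counts in a mouse. Choroid plexus RNA, read as Ttr over 50 CPM, was present in Msh3-/- female-3, Msh3-/- female-4 and WT male-3, and Q140 male-1, Q140 x Msh3-/- male-4 and Msh3+/- male-2 lay over 3 median absolute deviations from the median on the second principal component. In bulk tissue, fewer cells of a type and less RNA per cell cannot be told apart.

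Per unit of transcript length, the 36 genes spanned a wide range of levels. B2m, the invariant light chain of every class I molecule, was by far the most abundant at 102 ± 8.07 FPKM (SD, n = 48), followed by the class I heavy chain H2-D1 at 13.8 ± 1.32 and the proteasome subunit Psmb10 at 12.3 ± 0.754. These 3 were the only ones with a mean of at least 10 FPKM, and 18 of the 36 reached 1 FPKM. Stat2, the partner of Irf9 in the response factor, had 7.95 ± 0.485 FPKM and was the most abundant of the signalling genes, against 2.17 ± 0.256 for Irf9 and 0.408 ± 0.0706 for Irf7, which amplifies interferon production. Among effectors the mitochondrial protein gene Ifi27 led at 7.61 ± 0.686 FPKM, with the mitochondrial nucleotide kinase Cmpk2 at 6.75 ± 0.524. At the low end stood the DNA and RNA sensor Zbp1 at 0.0405 ± 0.0215 FPKM and the effector Ifi44 at 0.0673 ± 0.0256, the 2 genes under 0.1 FPKM.

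**Figure D1:**
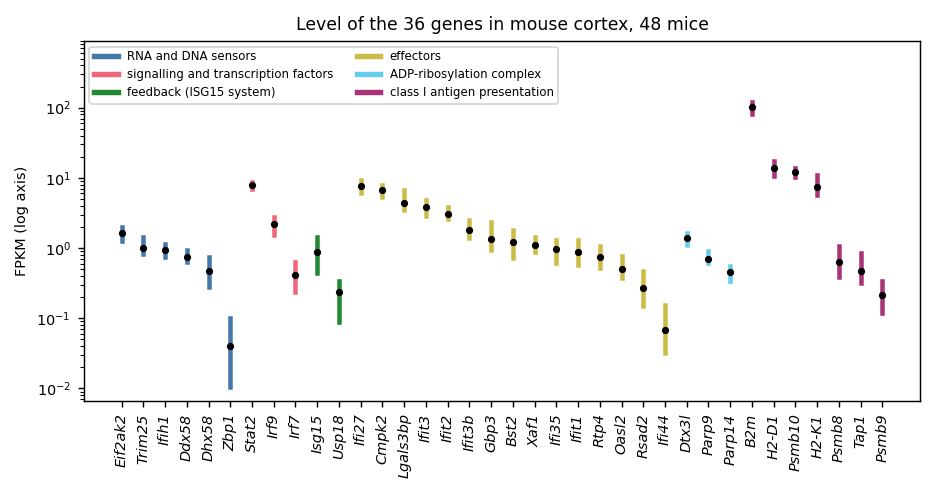
FPKM of each gene on a log axis, grouped by role and ordered by mean: dots are means of 48 mice and bars run from the lowest to the highest mouse. B2m stands near 100 FPKM, most sensors and effectors near or under 1, and Zbp1 and Ifi44 under 0.1.

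The spread between mice was largest for genes with few counts, but within roles it did not strictly follow the level. The RNA sensor and kinase Eif2ak2 (PKR), the most abundant sensor at 1.61 ± 0.16 FPKM, had an SD of 0.146 in log2 CPM within genotype and sex, while Dhx58, a regulator of the RIG-I-like sensors, had 0.306 at 0.472 FPKM. Ddx58, at 0.754 FPKM, and Ifih1, at 0.927, both varied less than Eif2ak2, by 0.12 and 0.139. B2m varied by 0.118, Stat2 by 0.0846 and Psmb10 by 0.0858, but Tap1, a subunit of the peptide transporter, by 0.249 and Rsad2, the antiviral enzyme viperin, by 0.345. The feedback pair Isg15, a ubiquitin-like modifier, and Usp18, the protease that removes it, were both under 1 CPM on average and varied by 0.418 and 0.35. Zbp1 had the largest SD, 0.712, with 2 counts in its lowest mouse.

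The interferon-inducible proteasome subunits differed from each other when set against their constitutive counterparts. Psmb8 FPKM was 2.06% ± 0.413 (SD, n = 48) of that of Psmb5, and Psmb9 was 0.725% ± 0.185 of Psmb6. Psmb10 instead reached 72.7% ± 5.21 of Psmb7. The ranges over mice, 1.25% to 3.61%, 0.36% to 1.24% and 57.2% to 84.2%, set Psmb10 apart from the other 2 in every mouse.

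Some of these counts cannot be assigned cleanly. Ifit3 and Ifit3b, near-identical neighbours 19.2 kb apart on chromosome 19, share 51.2% and 45% of their 50-base exon windows with other genes, nearly all with each other. Shared windows made up 13.9% of H2-D1, 11.6% of Rtp4 (with Gm45338), 7.13% of Ifit1 (with Ifit1bl2) and 6.87% of H2-K1, and under 5% of every other member. Parp9 and Dtx3l, 2 partners of an ADP-ribosylating ubiquitin ligase complex, lie on opposite strands of chromosome 16 and overlap by 682 bases, and Tap1 and Psmb9 on chromosome 17 overlap by 212. The library kit keeps the strand, per the labels, but whether counting used it is not given in the sources used here, so reads in these overlaps are uncertain.

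For the Q140 knock-in, 0 of the 36 genes were called at an adjusted p under 0.05 by edgeR's quasi-likelihood test in any of the 3 comparisons with matched Msh3 genotype. The share of all genes called was 0.01% in Q140 against WT, 0.015% in Q140 x Msh3+/- against Msh3+/- and 0% in Q140 x Msh3-/- against Msh3-/-. At an unadjusted p under 0.05 there were 1, 1 and 3 members, beside 5.48%, 6.2% and 6.8% of all genes. DESeq2, limma with voom and limma on FPKM each called 0 as well. The CPM ranges of the groups overlapped for all 36 members in these comparisons and in the 4 between Msh3 genotypes. Among all genes, ranges did not overlap for 0.06%, 0.01% and 0.005% in these 3 and for 0.025%, 0.05%, 0.035% and 0.055% in Msh3+/- against WT, Msh3-/- against WT, Q140 x Msh3+/- against Q140 and Q140 x Msh3-/- against Q140.

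B2m shows how close the groups lay. Its lowest, median and highest CPM were 69.7, 86.4 and 94.6 in WT, 79.2, 86.8 and 98.2 in Q140, and 81.9, 87.1 and 104.0 in Q140 x Msh3-/-. The groups overlapped almost fully, and the log2 fold change of Q140 over WT was 0.06 with a 95% interval from -0.06 to 0.17. Stat2 had the narrowest interval of the genes named by level, -0.09 to 0.08 around a difference of -0.00 in Q140 against WT, with ranges of 33.0 to 38.2 CPM in WT and 32.4 to 38.6 in Q140. For Isg15, at 0.338 to 0.948 CPM in WT and 0.481 to 0.847 in Q140, the interval was -0.38 to 0.43, so that a difference of that size in either direction could not be told from 0 at this depth and number of mice.

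The members with the smallest p in each comparison were few and different in role. In Q140 against WT, Irf9 ranged from 8.15 to 12.7 CPM (median 11.6) in Q140 and from 10.9 to 14.9 (median 12.5) in WT. The Q140 mice reached lower but most lay inside the WT range, and the difference was -0.18 ± 0.08 (log2, SE; adjusted p = 0.892, edgeR). The apoptosis factor Xaf1 (0.11 ± 0.08) and Tap1 (0.19 ± 0.13) came next, both with adjusted p = 0.942. In Q140 x Msh3+/- against Msh3+/-, the order was led by Bst2, or tetherin, which holds budding virus at the membrane: 0.833 to 1.43 CPM (median 1.15) against 0.706 to 1.14 (median 0.856), a difference of 0.32 ± 0.13 with adjusted p = 0.78. Ddx58, the RNA sensor RIG-I, followed with 0.12 ± 0.06 and Isg15 with 0.34 ± 0.19.

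In Q140 x Msh3-/- against Msh3-/-, Psmb10 ranged from 17.3 to 22.6 CPM (median 19.8) against 20.5 to 23.1 (median 21.8). Q140 x Msh3-/- mice extended below all Msh3-/- mice without separating from them, and the difference was -0.12 ± 0.04 with adjusted p = 0.671. Ifit3, an effector of the tetratricopeptide family, ranged from 6.11 to 8.3 CPM (median 7.26) against 5.4 to 7.81 (median 6.06), and its difference was 0.21 ± 0.09 (adjusted p = 0.685). Ddx58 had a difference of 0.14 ± 0.06 there, with adjusted p = 0.723.

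**Figure D2:**
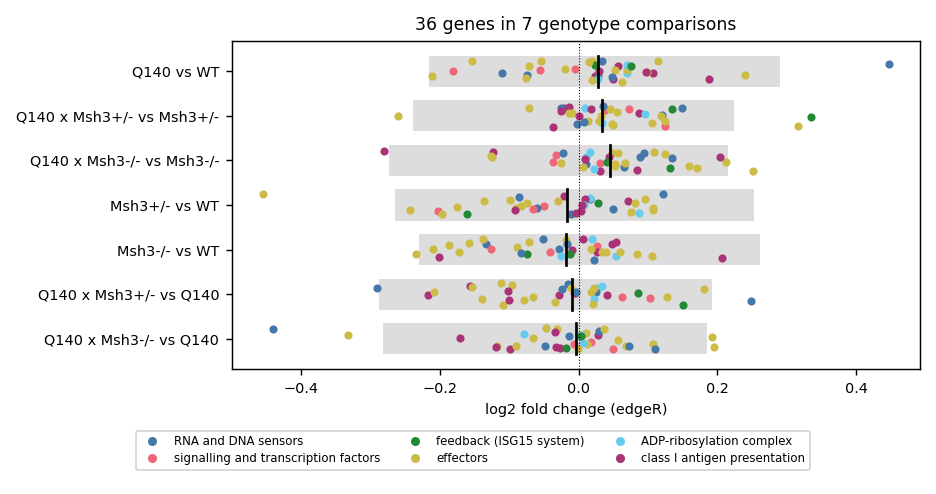
Log2 fold changes of the 36 genes (dots, coloured by role) in the 7 genotype comparisons, with their median as a black line and the 5th to 95th percentile of all 20010 genes as a grey band. The medians lie between -0.02 and 0.05, near the middle of each band.

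The members' median log2 fold change was 0.03 in Q140 against WT, 0.03 in Q140 x Msh3+/- against Msh3+/- and 0.05 in Q140 x Msh3-/- against Msh3-/-, with 25, 26 and 28 of 36 estimates above 0, beside 50.9%, 48.5% and 48.7% of all genes. These medians moved with the setting: the first ran from 0.008 with the plate column to 0.064 without WT female-3, the second from 0.019 without Q140 x Msh3+/- female-2 to 0.06 without Q140 x Msh3+/- female-1, and the third from 0.00 without Q140 x Msh3-/- female-1 to 0.075 with the plate column. Averaged over the 3 Msh3 backgrounds, 27 of 36 were above 0 beside 49.7% of all genes, and 0 were called beside 0.035% of all genes. The median there was 0.035, and 0.018 with the well row, while the mean deviation of the members (log2 CPM) had an SD of 0.128 between mice of a genotype. By role, the averaged median was 0.04 for the 6 sensors, -0.01 for the 3 signalling genes, 0.12 for the 2 ISG15 genes, 0.04 for the 15 effectors, 0.03 for the 3 ADP-ribosylation genes and 0.05 for the 7 class I genes. Only 3 members had an unadjusted p under 0.05, beside 5.63% of all genes: Ddx58 (0.10 ± 0.04), the chaperone gene Rtp4 (0.16 ± 0.07) and Bst2 (0.16 ± 0.08), with adjusted p from 0.735 to 0.864. The averaged estimates come from the same mice as the 3 comparisons. Since the members vary together between mice, as given below, the counts above 0 are not 36 separate observations.

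Class I genes were all above 0 in Q140 against WT, 7 of 7 with a median of 0.06 and 0 called by edgeR. Of all genes 50.9% were above 0 and 0.01% were called. The 3 ADP-ribosylation and 2 ISG15 genes were all above 0 there too. Class I genes vary together between mice (median pair r of 0.43), so 7 of 7 is not 7 separate observations. Of microglial markers 17 of 18 were above 0, also with a median of 0.06 and 0 called. The summed level of the markers was 436 to 523 CPM in WT and 436 to 594 in Q140. In Q140 x Msh3+/- against Msh3+/- 3 of 7 class I genes and 17 of 18 microglial markers were above 0, beside 48.5% of all genes. In Q140 x Msh3-/- against Msh3-/- 5 of 7 and 7 of 18 were, beside 48.7%. The part of microglial RNA in these values was not tested.

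The altered Msh3 alleles gave 0 called members as well. The share of all genes called was 0.025% in Msh3+/- against WT, 0.035% in Msh3-/- against WT, 0.02% in Q140 x Msh3+/- against Q140 and 0.045% in Q140 x Msh3-/- against Q140, and edgeR, DESeq2, voom and FPKM fits each called 0 of the 36 in all 4. With edgeR, members at an unadjusted p under 0.05 numbered 3, 0, 0 and 1, beside 9.5%, 5.73%, 5.14% and 9.07% of all genes. The medians of the members were -0.02, -0.02, -0.01 and -0.00, and over the alternatives the first ran from -0.048 to 0.023 and so had no stable sign. These comparisons share their WT or Q140 mice with each other, and all their groups are also used in those above. The same Msh3+/- mice, for example, enter here and in Q140 x Msh3+/- against Msh3+/-. A gene that leads in both is therefore not seen independently.

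Bst2 had the smallest p of any member in a genotype comparison. It was 0.706 to 1.14 CPM (median 0.856) in Msh3+/- and 0.711 to 1.65 (median 1.22) in WT. The overlap came from WT male-2 alone, at 0.711 CPM, since every other WT mouse, at 1.19 or more, lay above all Msh3+/- mice. The difference was -0.45 ± 0.14 (log2, SE), with an unadjusted p of 0.00184 and adjusted p = 0.313 (edgeR). In Msh3-/-, which has 2 altered alleles, Bst2 was 0.671 to 1.28 CPM (median 1.05) and the difference from WT was -0.23 ± 0.14, with adjusted p = 0.902. Irf9 (-0.20 ± 0.08) and Ifit1 (-0.24 ± 0.11) followed in Msh3+/- against WT, with adjusted p of 0.434 and 0.499.

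In Msh3-/- against WT, Oasl2, an oligoadenylate synthetase-like protein, led by p: 2.54 to 3.93 CPM (median 2.84) against 2.67 to 4.27 (median 3.37). The ranges overlapped over most of their length, and the difference was -0.21 ± 0.11 with adjusted p = 0.87. Ifit3 came next with -0.16 ± 0.09. No member separated Msh3-/- mice from WT mice.

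On the Q140 background, Ifi35, Tap1 and Dhx58 had the smallest p in Q140 x Msh3+/- against Q140, at 0.18 ± 0.10, -0.22 ± 0.13 and 0.25 ± 0.15, with adjusted p from 0.962 to 0.964. In Q140 x Msh3-/- against Q140 it was Psmb10 (-0.10 ± 0.04), Ifi27 (-0.12 ± 0.06) and Rsad2 (-0.33 ± 0.18), with adjusted p from 0.472 to 0.59. Psmb10 medians were 19.8 CPM in Q140 x Msh3-/- and 21.4 in Q140, and the ranges, 17.3 to 22.6 and 19.8 to 23.3, overlapped. Averaged over Q140 status, the Msh3-/- estimates were led by Ifi27 (-0.09 ± 0.04, adjusted p = 0.483), then Cmpk2 (0.08 ± 0.04) and Bst2 (-0.16 ± 0.10). In that average 0 members were called by edgeR, DESeq2, voom or FPKM, beside 0.085% of all genes, and 1 had an unadjusted p under 0.05 with edgeR, beside 9.27%.

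Whether the Q140 effect itself differed with Msh3 genotype was tested as a difference of differences. Each such test is built from Q140 comparisons given above and uses the same mice. 0 members were called by edgeR, DESeq2, voom or FPKM in either test, beside 0% of all genes, and with edgeR 1 member in each had an unadjusted p under 0.05, beside 5.35% and 6.43%. For Msh3-/- it was Psmb10, whose Q140 effect was lower by -0.15 ± 0.06 than in mice with unaltered Msh3 (adjusted p = 0.922). For Msh3+/- it was Irf9, with a difference of 0.31 ± 0.11 (adjusted p = 0.721). The median standard error of these tests was 0.128 and 0.127 (log2), larger than that of 0.0919 in Q140 against WT.

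Sex was the only comparison in which members were called. Between 24 males and 24 females, with genotype in the model, 3 of 36 genes were lower in males: Ifit1, Oasl2 and Dtx3l. The fold changes were modest, 0.84, 0.855 and 0.92, and no member was called higher in males. Of all 20010 genes, 5.56% were called between the sexes and 2.83% were lower in males, so the count of 3 is near the background. The calls depend on how plate position is treated: with the plate column in the model only Ifit1 was called, and with the well row none of the 3 (adjusted p from 0.0845 to 0.173), as described further below.

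Ifit1 (chr19:34640871-34650009, plus strand) encodes a protein that binds viral RNA lacking the host cap methylation. Its lowest, median and highest CPM were 1.98, 2.46 and 3.36 in females and 1.51, 2.02 and 3.14 in males, and 21 of 24 males lay below the female median although the ranges overlap. The log2 fold change was -0.25 ± 0.06 (SE), with adjusted p = 0.0144 (edgeR). Mean Ifit1 was lower in males in 6 of 6 genotypes. So were some uncalled members, among them Dhx58, Gbp3 and Rtp4, and these tallies use the same mice as the call.

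Oasl2 (chr5:114896936-114912234, plus strand), the only member on the chromosome of Htt and 80.1 Mb from it, had 2.54, 3.33 and 4.87 CPM in females and 2.32, 2.87 and 3.72 in males. Females were higher by the median and at the top of the range, with 19 of 24 males below the female median. Its difference was -0.23 ± 0.06 (adjusted p = 0.0201, edgeR) and again went the same way in 6 of 6 genotypes. Dtx3l (chr16:35926511-35939151, minus strand), the ubiquitin ligase of the Parp9 complex, had 7.51, 8.23 and 9.44 CPM in females against 6.18, 7.68 and 8.97 in males. Its difference was the smallest of the 3 and the best measured, -0.12 ± 0.03 (adjusted p = 0.0178, edgeR), and 21 of 24 males lay below the female median.

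**Figure D3:**
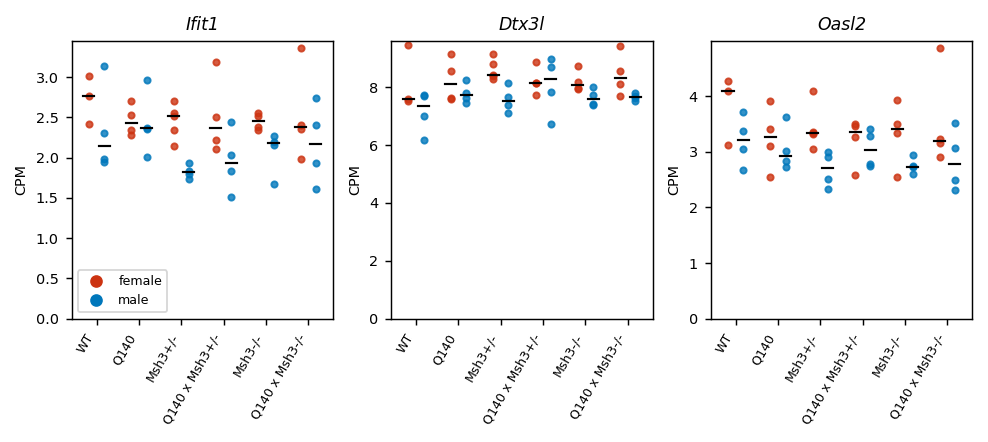
CPM of Ifit1, Dtx3l and Oasl2 in each of 48 mice, by genotype and sex, with medians as black lines and axes from 0. Male medians lie lower over all mice, 2.02 against 2.46 for Ifit1, while the ranges overlap, and the highest Oasl2 value, 4.87, is 1 female of Q140 x Msh3-/-.

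The next genes by p did not pass. Ifih1, the long-RNA sensor MDA5, was at -0.12 ± 0.04 (adjusted p = 0.0595), Dhx58 at -0.26 ± 0.09 (0.0646), Xaf1 at -0.12 ± 0.04 (0.0778) and Ifi27 at -0.10 ± 0.03 (0.0794). DESeq2 called 5 members, Ifih1 and Dhx58 besides the 3, and limma with voom called 4, with Ifih1. Isg15 had the lowest estimate of all, -0.27 ± 0.12, but with adjusted p = 0.165 at 0.329 to 0.925 CPM in males and 0.42 to 1.07 in females.

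Beyond the calls, the estimates of the list lay on the male-lower side. Of 36, 33 were below 0 beside 48.7% of all genes, and the 3 others were Zbp1 (0.06 ± 0.22), Ifit2 (0.01 ± 0.04) and Cmpk2 (0.00 ± 0.03). At an unadjusted p under 0.05 there were 16 members, all below 0, beside 20.7% of all genes in either direction and 10% in this one. The median of the members was -0.096 against 0.002 for all genes. Over the alternatives 31 to 36 were below 0: the estimates of Zbp1 ran from -0.0418 to 0.159, of Ifit2 from -0.0026 to 0.027, of Cmpk2 from -0.0168 to 0.0586, of Irf9 from -0.0517 to 0.0171 and of H2-D1 from -0.0296 to 0.024. The sign of these 5 is therefore not fixed. The members vary together between mice, as given below, so these counts are not 36 separate observations.

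**Figure D4:**
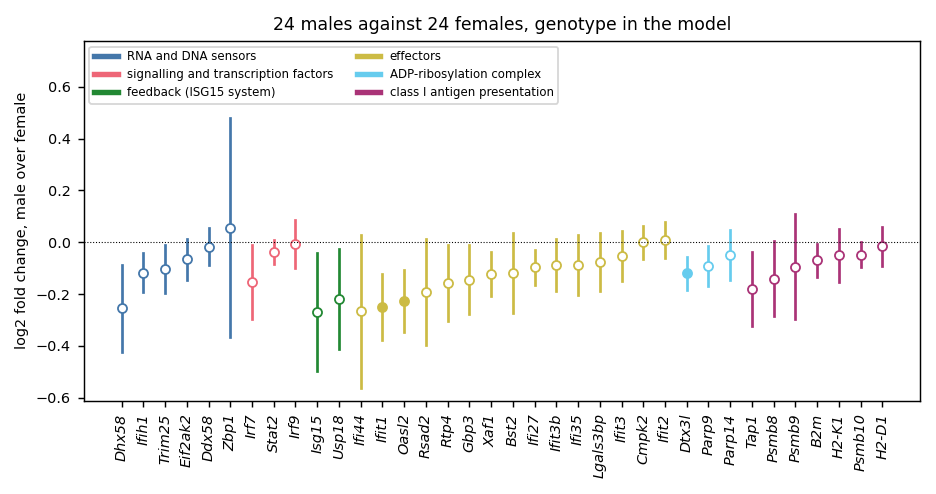
Log2 fold change of males over females for each gene with its 95% interval, grouped by role; filled dots are called at an adjusted p under 0.05. The estimates of 33 genes lie below 0 and those of Ifit1, Oasl2 and Dtx3l are filled, a call that none of them keeps with the well row in the model.

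By role, 5 of 6 sensors were below 0 with a median of -0.08, all 3 signalling genes (-0.04), both ISG15 genes (-0.24), 13 of 15 effectors (-0.12), all 3 ADP-ribosylation genes (-0.09) and all 7 class I genes (-0.07). Within signalling, Irf7 was at -0.15 ± 0.07 while Irf9 was at -0.01 ± 0.05, near 0 and of either sign over the alternatives. Within class I, Tap1 was lowest at -0.18 ± 0.07 (adjusted p = 0.132) and H2-D1 nearest to 0 at -0.02 ± 0.04, with a sign that also changed. B2m, with 78.3 to 104 CPM in females and 69.7 to 98.3 in males, was at -0.07 ± 0.03 (adjusted p = 0.204).

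The labels give each library a well address, and the sexes were uneven over the 8 well rows: row C held 0 females and 6 males, and row G 5 females and 1 male. With the plate column in the model 1 member was called, Ifit1, and Oasl2 and Dtx3l had adjusted p of 0.061 and 0.0765. With the well row, an alternative added after the data were seen, 0 were called by edgeR and 6 had an unadjusted p under 0.05, while estimates were -0.26 for Ifit1, -0.11 for Dtx3l and -0.24 for Oasl2 with adjusted p of 0.0845, 0.173 and 0.126, and 265 genes of 20010 were called in place of 1112. The 3 genes stayed called when any single mouse was left out, and the count rose to 5 without Q140 x Msh3-/- female-4, Q140 x Msh3+/- male-4 or WT female-1.

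Within single genotypes, with 3 to 5 mice of a sex, 0 members were called in any of the 6 by edgeR. Of all genes, 0.17% were called in WT, 0.13% in Msh3+/-, 0.27% in Msh3-/-, 0.06% in Q140, 0.06% in Q140 x Msh3+/- and 0.07% in Q140 x Msh3-/-. In the same order 4, 10, 4, 0, 2 and 4 members had an unadjusted p under 0.05, beside 11.3%, 10.1%, 11.2%, 5.34%, 6.2% and 5.18% of all genes. Estimates below 0 numbered 32, 34, 28, 25, 18 and 32 of 36, beside 51.3%, 49.3%, 49.5%, 49%, 48.8% and 48.4% of all genes. The medians were -0.17, -0.16 and -0.09 in the 3 groups without the knock-in and -0.03, 0.00 and -0.12 in the 3 with it. For Ifit1 the male estimate ran from -0.03 ± 0.16 in Q140 to -0.43 ± 0.15 in Msh3+/-, and for Dtx3l from -0.03 ± 0.08 in Q140 x Msh3+/- to -0.20 ± 0.09 in WT. Tested directly, the sex effect in Q140 carriers minus that in non-carriers was above 0 for 30 of 36 members, beside 51.1% of all genes, with a median of 0.08. There 0 were called by edgeR, beside 0% of all genes, and 1 had an unadjusted p under 0.05, beside 4.7%, with a smallest adjusted p of 0.964. A test of any difference in the sex effect among the 6 genotypes gave its smallest p for Rsad2, 0.0558, with adjusted p = 0.928 (edgeR). Because the members vary together between mice, the counts of estimates above or below 0 here are not 36 separate observations.

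Of 10 lists of cell type markers, 5 held a marker called between the sexes. Among all genes, 5.56% were called between the sexes, 20.7% had an unadjusted p under 0.05 and 48.7% were below 0. Summed microglial markers had medians of 477 CPM in females (435 to 523) and 479 in males (436 to 594), with 7 of 18 below 0 in males, where Fcrls fell by 0.18 on the log2 scale and Sall1 rose by 0.07. Endothelial markers summed to a median of 284 CPM in females (247 to 336) and 266 in males (245 to 299), with 9 of 11 below 0, and Vwf, the von Willebrand factor gene, fell by 0.25 (adjusted p = 0.0186, edgeR). Border macrophage markers had medians of 11.5 (7.76 to 14.6) and 9.58 (4.31 to 20) with 6 of 7 below 0 and 0 called by edgeR (3 at an unadjusted p under 0.05), and oligodendrocyte markers 1880 (1460 to 2510) and 1710 (1270 to 2350) with 6 of 6 below 0 and 0 called (2 at that p). The globin and other blood genes went the other way, with medians of 2.56 CPM in females (0.111 to 11.8) and 7.39 in males (0.353 to 17.1) and 5 of 5 above 0, 0 called and 5 at that p. Among astrocyte markers 6 of 8 were below 0, where Aldh1l1 fell by 0.11 and Gja1 rose by 0.08, among neuronal markers Slc17a7 rose by 0.08, and among meningeal markers 7 of 7 were below 0 and Igfbp2 fell by 0.24. All 7 choroid plexus markers tested were below 0 with 0 called (1 at that p), and of 3 peripheral immune markers tested 2 were below 0 with 0 called and 0 at that p. With the well row in the model Fcrls was the only marker of these that remained called (adjusted p = 0.0383). Endothelial and border macrophage markers were above 0 in every mouse, while Hba-a1, Hbb-bt and Alas2 were at 0 in some. The part of these cell types in the sex difference of the 36 genes was not tested.

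Other genes of the pathway were taken from 9 lists of 163 genes, of which 129 were tested. In the 11 genotype comparisons 0 of the 129 were called by edgeR, beside 0% to 0.085% of all genes. At an unadjusted p under 0.05 there were 3 to 11, beside 5.14% to 9.5% of all genes. Their smallest p in Q140 against WT belonged to Ptpn2, a phosphatase that acts on Janus kinases and STAT proteins (-0.13 ± 0.04, unadjusted p = 0.00561, adjusted p = 0.822), and to Iigp1, an immunity-related GTPase (0.54 ± 0.20, adjusted p = 0.88). In Msh3-/- against WT they were Adar, the RNA editing enzyme that keeps host RNA from being sensed (-0.17 ± 0.06, adjusted p = 0.74), and the helicase gene Ddx60 (-0.32 ± 0.14, adjusted p = 0.848). Interferons themselves were barely counted: of 21 ligand genes 9 had 0 counts in all 48 mice, and none had over 2 counts in a mouse. Ligand RNA could not be compared at this depth in whole cortex. The receptor chains were present, Ifnar1 at 7.89 FPKM and Ifnar2 at 3.29, as was the kinase Jak1 at 29.1.

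Between the sexes 7 of the 129 were called by edgeR and 25 had an unadjusted p under 0.05, beside 5.56% and 20.7% of all genes. Both counts are near the background, so the genes named below do not set the pathway apart. Estimates were below 0 for 48.7% of all genes. With the plate column in the model 5 of the 7 remained called, without Sp100 and Calr, and with the well row 1, Sp100 (adjusted p = 0.0394), while the others had adjusted p from 0.106 to 0.361. Among 62 other interferon-stimulated genes 3 were lower in males and 0 higher, with 51 estimates below 0 and a median of -0.08. Oas2, which makes the activator of RNase L, fell from 0.657 ± 0.182 CPM (SD, n = 24) in females to 0.454 ± 0.154 in males (log2 -0.52 ± 0.13, adjusted p = 0.013, edgeR). Ifi203, a nuclear DNA-binding protein gene, fell by 0.36 (adjusted p = 0.0105), and Sp100, a nuclear body protein gene, by 0.23 (adjusted p = 0.0198).

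Of 18 other class I genes, the endoplasmic reticulum chaperones Calr and Pdia3, both members of the peptide-loading complex, fell by 0.13 and 0.11 in males (adjusted p = 0.035 and 0.0187, edgeR), while Psme1, a proteasome activator subunit, rose by 0.08 (adjusted p = 0.0458). Irf3, the factor that starts interferon transcription, fell by 0.13 (adjusted p = 0.0259), the only one of 7 further interferon regulatory factors to pass. Of 10 receptor and JAK-STAT genes 9 were below 0 and 0 were called by edgeR, with 0 at an unadjusted p under 0.05. Class II genes, 8 tested, had 5 estimates above 0 and 0 called, with 1 at an unadjusted p under 0.05.

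Members varied together between mice of the same genotype and sex. Over 48 mice, after the mean of each genotype and sex was removed, the median Pearson r of the 630 pairs of members was 0.23, and 88.4% of pairs were above 0. Pairs of a member and another tested gene had a median of 0.00 with 50% above 0. All points share their library and its depth, so r is a description only. The 21 pairs of class I genes had a median of 0.43, and the highest of all pairs was H2-K1 with H2-D1 at 0.82, 2 heavy chain genes with some shared exon sequence. Oasl2 with Tap1 had 0.64, Irf7 with Ifit1 0.63 and the proteasome subunit Psmb8 with H2-K1 0.63.

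**Figure D5:**
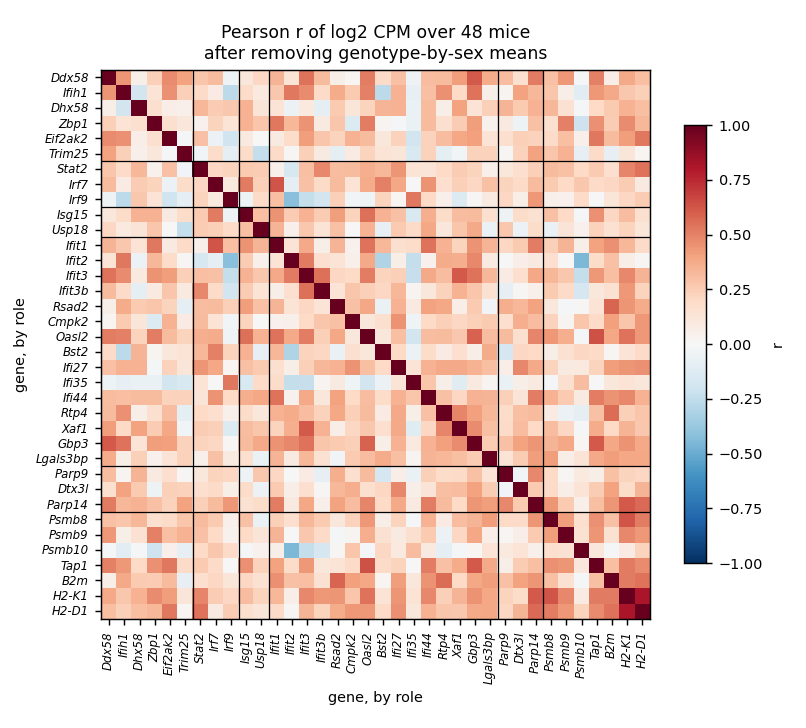
Pearson r between members over 48 mice after genotype-by-sex means were removed, ordered by role with lines between roles. Red fills most of the map, deepest for H2-K1 with H2-D1 at 0.82, while Irf9, Ifi35 and Psmb10 have paler rows, and the bluest cells are Ifit2 with Psmb10 at -0.45 and with Irf9 at -0.42.

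Set against the mean of the other 35 members, H2-K1 had the highest r, 0.74, followed by Gbp3, a guanylate-binding GTPase, at 0.70, Oasl2 at 0.69 and Parp14, a mono-ADP-ribosyltransferase, at 0.68. A few members did not follow the rest: Ifi35 had 0.06, Psmb10 0.09, Irf9 0.14 and Ifit2 0.19. Ifit2 with Psmb10 was the lowest pair at -0.45 and Ifit2 with Irf9 next at -0.42. Psmb10 and Irf9 were 2 of the 3 that follow the list least. They also had the smallest p in the tests of a Q140 effect that differs with Msh3 genotype, for Msh3-/- and Msh3+/- in turn. Neither was called there (adjusted p = 0.922 and 0.721, edgeR), and a link between the 2 rankings was not tested.

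A single mouse had the highest level for many members. The mean deviation of the 36 genes from their own means (log2 CPM) was 0.381 in Q140 x Msh3-/- female-1, which was highest of 48 mice for 13 members and highest of its group for 25. Tap1 was 4.54 CPM there and 1.77 to 3.1 in the other 7 mice of the group, Gbp3 7.65 against 3.51 to 4.97, and H2-K1 28.1 against 15.8 to 24.6. This library had the lowest total of all 48, 35946572 counts. Its summed blood markers, 11.8 CPM, ranked 4 of 48 from the highest and its choroid plexus markers, 11 CPM, ranked 8, while microglial markers, 477 CPM, ranked 26, peripheral immune markers, 1.65 CPM, ranked 15, and oligodendrocyte markers, 1500 CPM, ranked 43. The part of these in its levels was not tested. Without it the median of the members in Q140 x Msh3-/- against Msh3-/- was 0.00 in place of 0.05, the median pair r was 0.20 with 85.9% above 0, and 3 genes remained called between the sexes. Other mice lay between -0.274 and 0.222, and without this mouse the median of Q140 x Msh3-/- was -0.075 (n = 7). Over all 48 mice the median was 0.058 in females and -0.07 in males, and the genotype medians ran from -0.059 in Q140 x Msh3-/- to 0.051 in Q140.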

How the data were processed

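Cortical RNA came from Qiagen RNeasy columns and went into TruSeq stranded libraries, per the labels. The deposited counts are whole-number read counts per gene for 48 mice, and HTSeq 0.12.3, STAR 2.7.5c and SAMtools 1.10 with GRCm38 (mm10) are named per the submitters' processing notes. The strand setting and annotation are not given in the sources used here. The FPKM values that the authors deposited are these counts scaled by 1 factor per gene and 1 per library, which was checked on 12703 genes. The 36 members, the gene lists and the tests were chosen with earlier results of these data known. The labels describe separate animals.

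The fit used edgeR 4.0.16 in R 4.3.3: filterByExpr on genotype left 20010 genes, and TMM factors, the 6 genotypes and sex entered 1 quasi-likelihood fit over all 48 mice. Called means a p under 0.05 after Benjamini-Hochberg adjustment over the 20010 genes. This fit gave 12 comparisons. A second edgeR fit on the same genes, added to these, held a sex term for each genotype. It gave the sex effects within genotypes, their contrast between Q140 carriers and non-carriers, and the test of any difference among genotypes. CPM uses TMM-scaled totals, SE is the standard error of the log2 fold change, and intervals are at 95%. Levels between genes were compared as FPKM only. Alternatives were RLE factors, no filter and a stricter one (CPM of 1 in 7 mice), limma 3.58.1 (voom with quality weights, or log2 of the authors' FPKM plus 0.1 or 1), DESeq2 1.42.0, the replicate block, plate column, no sex term, a random block for the stem of the column name, only the groups compared, and leaving out mice. The well row, and leaving out the 3 libraries far out on the second principal component, were added after the data were seen, since no library passed the planned 5 median absolute deviations. Named were called members, the 3 smallest p in each comparison, the highest FPKM of each role and its largest SD among members with a mean of at least 1 CPM, and, from other lists, called genes and the 2 smallest p in 2 comparisons; other names were chosen after their values were seen. Gene positions are from GENCODE M21, promoters from RefSeq, and shared sequence was counted as 50-base exon windows that occur in another gene. The fits were tested on simulated data, with 50 genes changed at each fold. In Q140 against WT, 52% of 1.2-fold, 60% of 1.3-fold, 80% of 1.5-fold and 84% of 2-fold changes were called. Between the sexes these were 63%, 80%, 96% and 98%. A true change of this size in a genotype comparison could thus be missed.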

Additional observations from a re-analysis of the deposited data

Results flagged for a closer look

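In each group of mice, the highest and the lowest CPM of each member was compared with its nearest neighbour by Dixon's criterion at the 95% level. Of 216 groups, 17 were flagged (7.87%), and chance flags about 1 in 20. Q140 x Msh3-/- female-1 had 4 of them as the highest of its group: Oasl2 at 4.87 CPM (next 3.52), Ifi44 at 0.936 (next 0.479), Gbp3 at 7.65 (next 4.97) and Psmb8 at 2.84 (next 2.04). WT female-3 had 3: Trim25, a ubiquitin ligase of RIG-I signalling, at 8.33 (next 6.41), Irf7 at 2.39 (next 1.56) and Lgals3bp, a secreted glycoprotein, at 17.4 (next 13.3).

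Msh3-/- male-3 was highest for Zbp1 at 0.336 (next 0.163) and Ifit2 at 13.1 (next 11.7). Zbp1 was also high in WT female-2 at 0.23, Ifit2 in Msh3+/- female-4 at 15.1, Ifit3b in Msh3-/- female-3 at 4.62, Lgals3bp in Q140 x Msh3-/- male-2 at 19.3 and Parp9 in Q140 x Msh3+/- female-2 at 4.34. Low values were flagged for Ifit1 in Msh3-/- male-4 at 1.67 (next 2.16), Parp14 in Msh3+/- male-2 at 3.11 (next 3.96) and H2-D1 in WT male-1 at 28.6 (next 34.7).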

How the results depend on the processing

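In the 11 genotype comparisons 0 members were called under every alternative run. The main fit called only 0% to 0.085% of all genes there, so this count could hardly differ between settings and does not test them. Medians over members ran from 0.008 to 0.064 in Q140 against WT and 0.00 to 0.075 in Q140 x Msh3-/- against Msh3-/-. Between the sexes, 5 members were called by DESeq2, 1 with the plate column and 0 with the well row, and 3 to 5 when 1 of the 48 mice was left out. The median over members there ran from -0.107 to -0.04, the last on log2 of FPKM plus 1, which understates low genes. The replicate block, sex by replicate number in place of sex, gave a median of 0.039 in Q140 against WT and 0 called members in each genotype comparison. It and the fit without a sex term give no sex comparison. Replicate numbers do not pair the mice: over 115 pairs with the same sex and number in different genotypes the mean r of deviations was -0.008 (-0.24 to 0.11). A random block for the column stem (correlation 0.106) left 3 members called between the sexes. No called member changed direction, but uncalled values near 0 did, such as the median in Msh3+/- against WT (-0.048 to 0.023) and the sex estimates of Zbp1, Ifit2, Cmpk2, Irf9 and H2-D1. Depth limits Zbp1 most, with a median standard error for members of 0.0919 and a largest of 0.372 in Q140 against WT.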

Other observations

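The lowest mean deviations of the 36 genes were -0.274 in Msh3+/- male-2 and -0.213 in Msh3+/- male-1, which share the stem of their column names, and the third was -0.203 in Q140 x Msh3-/- male-3. Msh3+/- male-2 is also 1 of the libraries that stand apart on the second principal component. Over the 23 pairs of mice from different genotypes with the same stem, the mean r of deviations over genes was 0.068, beside -0.002 for other pairs. The highest mean deviations after Q140 x Msh3-/- female-1 were 0.222 in Q140 male-2 and 0.217 in WT female-3.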
